A study of Mus musculus with 2 samples.

Results

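Glucose uptake, glycolysis and the hypoxia-inducible factor (HIF) axis were followed through 34 named genes in regulatory T (Treg) cells. The cells were wild type or a knockout of the deubiquitinase POH1. The genes were taken by symbol from the deposited gene tables, where all 34 were found among 34745 rows, and they fall into 2 glucose transporters, 18 genes of glycolytic steps, 10 of pyruvate and lactate handling and 4 HIF regulators. Splenic CD4+Foxp3+ cells (YFP+) were sorted from C57BL/6 mice aged 2 weeks, either poh1+/+ Foxp3Cre+ (wild type here) or poh1fl/fl Foxp3Cre+ (knockout here). Both groups carry the Cre allele, which deletes in cells that have expressed Foxp3. There was 1 library of each genotype, and the labels do not say how many mice were pooled for it. No difference below therefore has a replicate check or a p-value. Ranges in parentheses are exact 95% counting intervals of the ratio of the 2 libraries, which cover counting error only.

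Glycolysis splits glucose into pyruvate in the cytosol. Pyruvate is then either reduced to lactate and exported or carried into mitochondria and oxidised by pyruvate dehydrogenase. HIF-1 is a transcription factor that raises many glycolytic genes when oxygen is short; in oxygenated cells EGLN prolyl hydroxylases mark its alpha subunit for ubiquitination by the VHL ligase and destruction by the proteasome, of which POH1 is the lid deubiquitinase. Activated effector T cells are known for strong aerobic glycolysis, whereas Treg cells are described as leaning more on mitochondrial oxidation. The tables count transcripts and do not measure HIF-1 alpha protein or glucose flux.

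Total counts were 18124611 for wild type and 14544212 for knockout, and Psmd14, which encodes POH1, had 1619 and 463 counts, 2.81-fold lower in the knockout (2.53 to 3.12). The Psmd14 transcript was thus reduced and not absent, and POH1 protein was not measured. Marker genes were called higher or lower by the 1.5-fold rule given below, by which 9.58% of all measured genes were higher and 12.3% lower. The defining Treg transcript Foxp3 was at 671 and 1073 CPM (counts scaled to the library total), Il2ra at 990 and 1530 CPM and Cd4 at 688 and 724 CPM. Of 8 Treg identity genes 3 were higher (37.5%: Foxp3, Il2ra and Ikzf4) and 2 lower (25%). The lower ones were Ctla4 at 1120 and 703 CPM (1.59-fold, 1.56 to 1.63) and Ikzf2 at 825 and 526 CPM (1.57-fold, 1.53 to 1.61). Markers of other cells were present at low levels and differed between the libraries. The summed level of 10 B cell markers was 157 and 42.0 CPM, all 10 of them lower (Cd79b, the most abundant, 25.9 and 12.3 CPM), and that of 9 erythroid markers was 97.4 and 23.8 CPM, all 9 lower. The 15 neutrophil and monocyte markers summed to 151 and 182 CPM, with 1 of 12 measured members higher (8.33%, near the share of all genes) and 4 lower (33.3%). Elane was at 0 counts in both libraries, and Camp, S100a8 and Ly6g were at 0 in the knockout library alone. Cd8a and Cd8b1 together were at 18.8 and 47.4 CPM, both higher. The 18 cell division genes were all lower and summed to 3401 and 1316 CPM, led by Mki67 at 1125 and 344 CPM. In sorted bulk RNA, fewer cells of a type and less RNA per cell cannot be told apart, and the part of these differences in the results below was not tested.

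Most of the 34 genes differed little between the libraries, and those that differed most were lactate transporters, single glycolytic enzymes and the oxygen sensor gene Egln3. The rule for calling a gene higher or lower was a counting interval that excluded every ratio within 1.5-fold. It was applied to genes that reached 1 CPM in either library, as all 34 did. By this rule 4 genes were higher in the knockout library (Hk3, Pfkfb4, Pfkm and Ldhb) and 7 were lower (Egln3, Slc16a1, Tpi1, Pgam1, Hk2, Slc16a3 and Ldha), while 23 were neither. Of all 13464 measured genes, 9.58% were higher and 12.3% lower, against 11.8% and 20.6% of the 34. The share higher is near that of all genes, and the share lower is above it, with no test of that difference. Among genes at 5 CPM or more, 3 of 32 members were higher and 7 lower, against 9.13% and 11.6% of all genes. A 2-fold rule gave 0 and 4 of the 34, against 4.34% and 6.63% of all genes, and a rule of 25% difference gave 5 and 11, against 16.7% and 19.5%. The log2 ratio, knockout over wild type, had a median of -0.23 over the 34 genes and -0.01 over all measured genes, whose quartiles were -0.44 and 0.39. By class, the median was -0.23 for transport, -0.18 for glycolytic steps, -0.32 for pyruvate and lactate handling and -0.22 for the HIF regulators. Together the 34 genes held 0.518% of wild-type counts (95% exact binomial interval 0.515% to 0.521%) and 0.421% of knockout counts (0.418% to 0.424%). The summed level, 5182 and 4209 CPM, is dominated by abundant genes such as Pkm (1102 and 795 CPM) and Ldha (729 and 451 CPM).

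**Figure D1:**
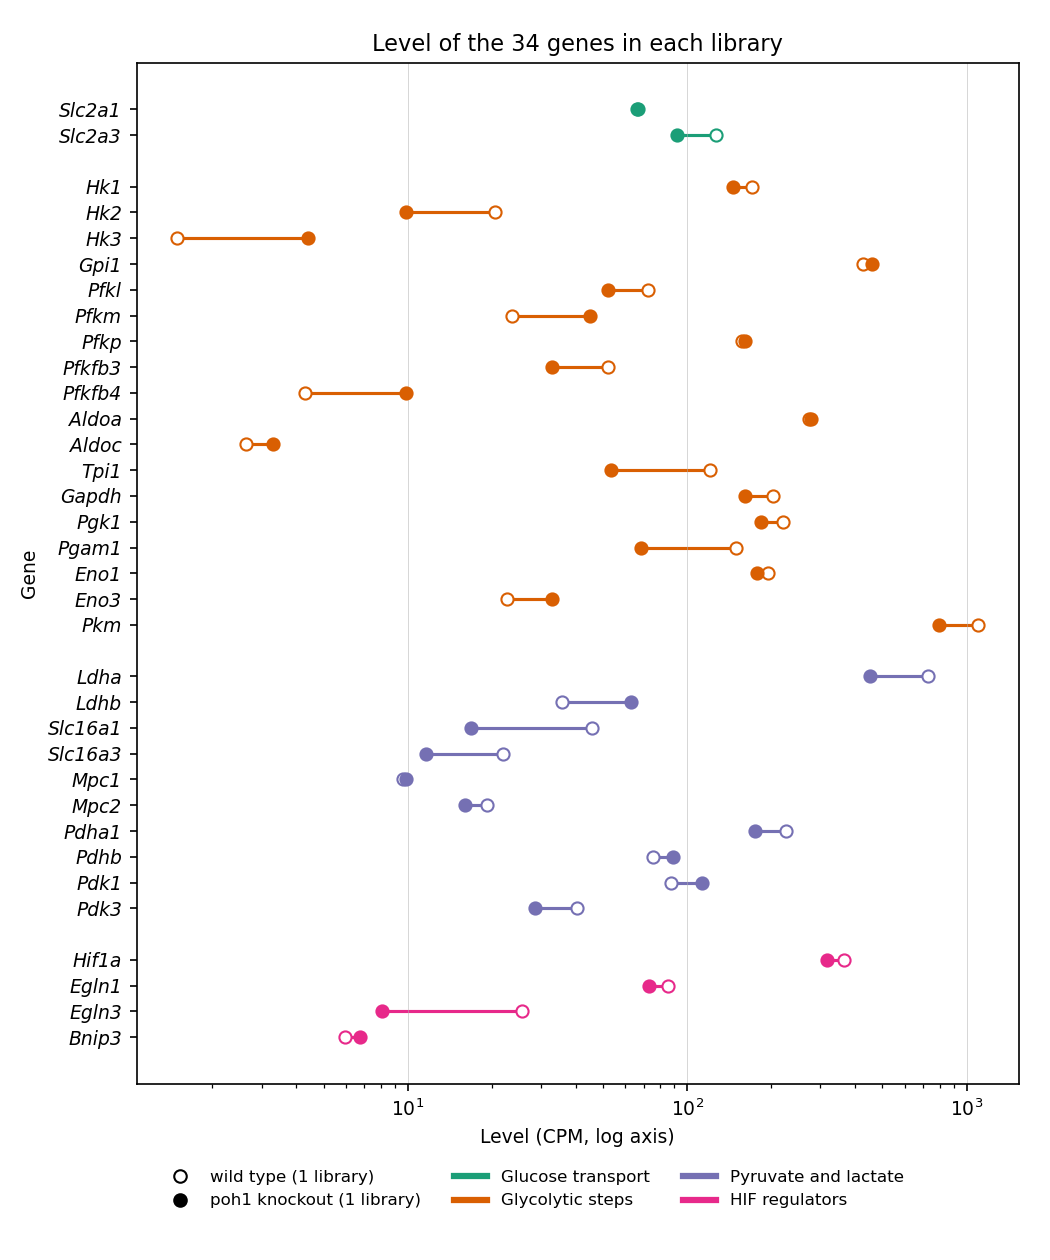
Level of each of the 34 genes in CPM (log axis) in the wild-type library (open circle) and the knockout library (filled circle), joined by a line coloured by class. The longest lines belong to Egln3 (25.7 to 8.11 CPM) and Hk3 (1.49 to 4.40 CPM), and Slc2a1 (66.8 and 66.3 CPM) and Aldoa (273 and 278 CPM) hardly differ.

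The starts of Ldha, Slc16a1, Egln3 and Ldhb are shown because these genes of lactate and oxygen handling were called in one direction or the other, and because HIF-1 binds DNA through a short core, ACGTG or GCGTG. Each line gives the 250 bases before a RefSeq transcription start (build GRCm38.p6, 5′ to 3′ on the gene's strand), none overlapping an annotated exon, with every ACGTG or GCGTG on either strand in capitals. In GENCODE M21 the windows of Slc16a1, Egln3 and Ldhb lie upstream of the gene, and that of Ldha lies in an intron of a longer annotated Ldha transcript.
Ldha (chr7:46845554-46845803, plus strand, lower in the knockout library): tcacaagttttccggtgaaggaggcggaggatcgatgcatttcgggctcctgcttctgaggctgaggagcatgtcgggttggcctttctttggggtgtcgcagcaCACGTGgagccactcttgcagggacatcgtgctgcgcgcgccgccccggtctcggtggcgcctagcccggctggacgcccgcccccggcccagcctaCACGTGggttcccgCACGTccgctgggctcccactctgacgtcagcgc
Slc16a1 (chr3:104638414-104638663, plus strand, lower): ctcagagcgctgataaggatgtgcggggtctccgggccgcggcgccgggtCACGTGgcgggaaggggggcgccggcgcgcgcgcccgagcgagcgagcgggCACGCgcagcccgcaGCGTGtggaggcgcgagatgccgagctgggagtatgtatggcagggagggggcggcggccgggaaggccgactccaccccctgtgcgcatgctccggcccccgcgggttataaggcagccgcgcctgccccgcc
Egln3 (chr12:54203875-54204124, minus strand, lower): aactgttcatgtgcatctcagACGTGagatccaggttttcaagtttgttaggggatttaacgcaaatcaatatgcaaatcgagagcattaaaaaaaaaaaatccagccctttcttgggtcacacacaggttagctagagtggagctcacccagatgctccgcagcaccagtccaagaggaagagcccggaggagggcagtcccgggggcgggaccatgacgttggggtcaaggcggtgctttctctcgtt
Ldhb (chr6:142507958-142508207, minus strand, higher): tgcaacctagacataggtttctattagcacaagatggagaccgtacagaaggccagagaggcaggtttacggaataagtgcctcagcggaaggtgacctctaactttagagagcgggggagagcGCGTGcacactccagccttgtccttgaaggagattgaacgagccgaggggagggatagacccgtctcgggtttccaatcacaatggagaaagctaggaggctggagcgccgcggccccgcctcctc
Capitals that read CACGTG are the palindromic E-box, bound by MYC and MAX and by MLX-family factors, in which the core overlaps itself on the other strand. Ldha, shown at the more upstream of 2 RefSeq starts, held the core at 3 places, of which 2 were E-boxes, beginning 145, 48 and 34 bases before the start. The 250 bases before the other Ldha start held 1 place, 59 bases before it, and no E-box. Slc16a1 also held 3 places, 1 of them an E-box. Egln3 held a single place 229 bases, and Ldhb a single place 126 bases, before the start. The window of Slc16a3, a lactate transporter gene also called lower, overlaps an annotated exon and is not shown. It held 2 places, 27 and 14 bases before the start, and no E-box. In windows of 300 bases, from 250 before to 50 after a start, the core was found in 39 of 47 windows of 33 of the 34 genes (83.0%). It was in 61.0% of 12161 windows of measured genes and in 43.8% of all 32851 windows, and the mean GC content of those sets was 61.7%, 60.4% and 53.8%. The core did not separate the genes by their ratio, being present for all 4 genes that were higher, 6 of the 7 that were lower (all but Tpi1) and 21 of the 22 others in the table. The E-box was in 6 of the 47 windows (12.8%), against 9.75% of windows of measured genes. A match of these letters is a description and not a binding site.

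The 2 glucose transporters were not counted as different. Slc2a1, the gene of the broadly expressed transporter GLUT1, was at 66.8 and 66.3 CPM in the wild-type and knockout libraries, and its interval spanned no difference (log2 ratio -0.01, which turned to 0.03 under upper quartile scaling). Slc2a3, the gene of the high-affinity transporter GLUT3, was at 127 and 92.3 CPM, 1.37-fold lower (1.28 to 1.47), an interval away from no difference but within 1.5-fold. The plot of ratios with their intervals shows both inside the 1.5-fold lines. Per length, the deposited FPKM (fragments scaled to gene length and library size) of the pair were alike in the wild-type library, 12.8 for Slc2a1 and 11.6 for Slc2a3, and further apart in the knockout library, 12.7 and 8.45.

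**Figure D2:**
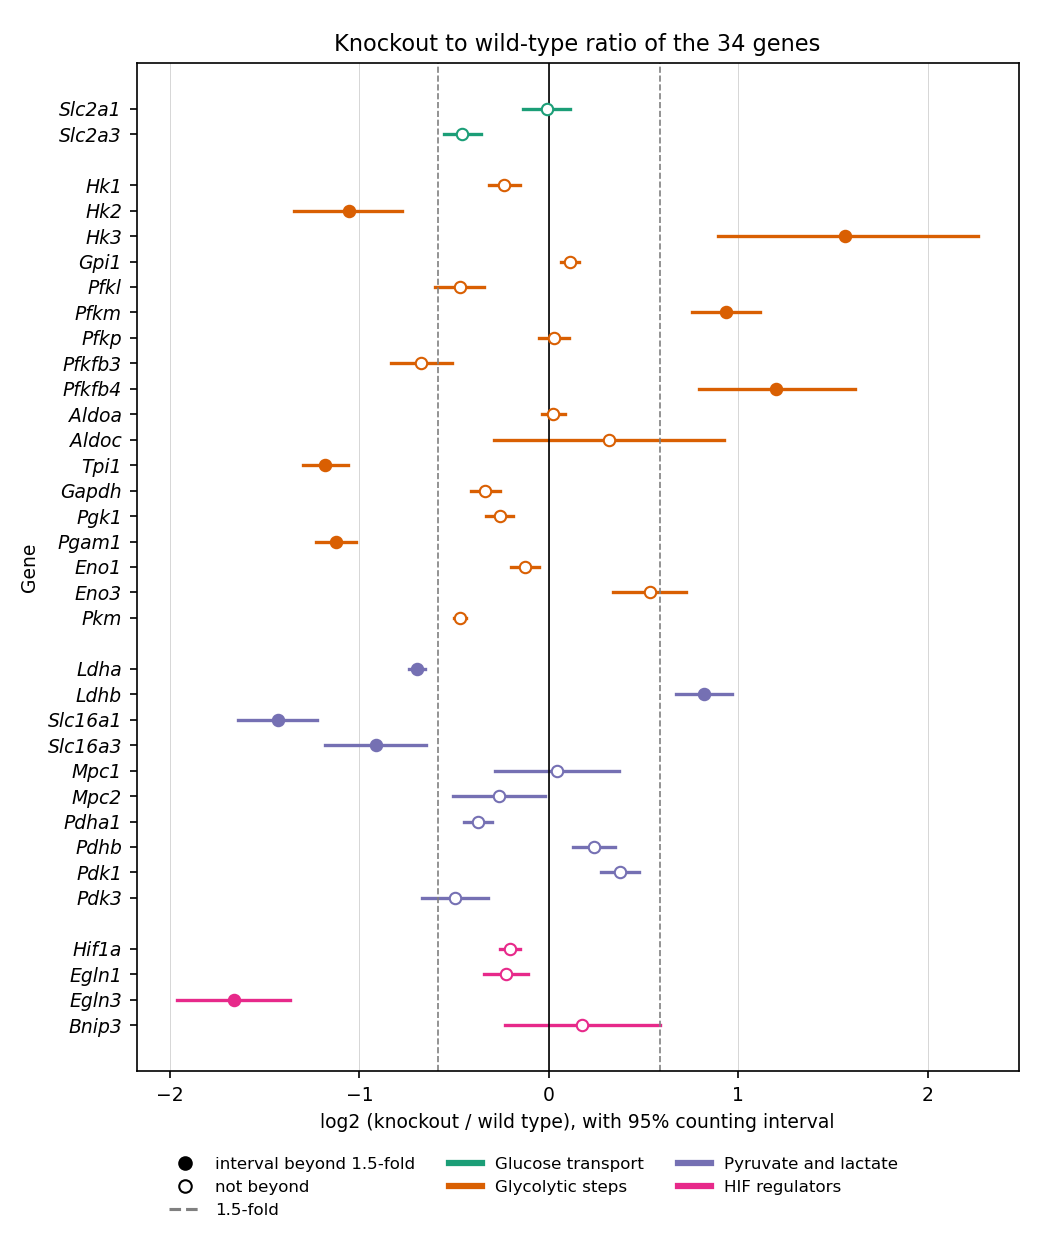
log2 ratio of knockout to wild type for each of the 34 genes (points) with its 95% counting interval (bars); dashed lines mark 1.5-fold and filled points are genes whose interval lies wholly beyond it. The 7 filled points on the left run from Egln3 (3.16-fold lower) to Ldha (1.62-fold lower), and the 4 on the right are Hk3, Pfkfb4, Pfkm and Ldhb.

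Hexokinases trap glucose in the cell by phosphorylating it, and their 3 genes went different ways. Hk1, the main form here, was at 171 and 145 CPM, 1.18-fold lower (1.11 to 1.24). Hk2, the inducible form, had 373 and 144 counts, or 20.6 and 9.90 CPM, which is 2.08-fold lower (1.71 to 2.54). Hk3, a form known from myeloid cells, had 27 and 64 counts, or 1.49 and 4.40 CPM, and was 2.95-fold higher (1.86 to 4.82). The level of Hk3 is low in both libraries. Of the 12 measured neutrophil and monocyte markers, Csf1r was higher at 52.9 and 92.1 CPM and Ngp, Camp, Ltf and Mpo were lower. The other 7 were neither. They were Lyz2 at 37.2 and 40.7 CPM, Cd68 at 21.2 and 16.2 CPM, Adgre1 at 13.6 and 13.5 CPM, and 4 at lower levels. Of these 4, Itgam was at 5.52 and 8.66 CPM (ratio 1.57, 1.20 to 2.06), Fcgr1 at 1.82 and 2.96 CPM and Cd14 at 1.66 and 2.27 CPM. S100a9 was at 2.43 and 0.962 CPM. Their part in the Hk3 difference was not tested. The 3 hexokinase genes summed to 193 and 160 CPM.

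Phosphofructokinase-1 commits sugar to glycolysis, and its subunit genes differed in opposite directions while their sum was alike, at 254 and 258 CPM (ratio 1.02, 0.973 to 1.06). Pfkm, the muscle-type subunit, had 427 and 656 counts, or 23.6 and 45.1 CPM, and was 1.91-fold higher in the knockout library (1.69 to 2.17). Pfkl, the liver-type subunit, was at 72.5 and 52.3 CPM, 1.39-fold lower (1.27 to 1.52), and Pfkp, the platelet-type subunit, was at 158 and 160 CPM. Exons of other genes overlap 10.7% of the exon length of Pfkm, and the kit does not mark strand. The Pfkm count is therefore uncertain by an amount that is not known. Such overlap was larger for Mpc1 (23.1%), Bnip3 (22.3%), Pdha1 (16.1%), Pkm (15.3%) and Gpi1 (11.5%). The bifunctional PFKFB enzymes make and break fructose 2,6-bisphosphate, the activator of that step. Pfkfb3 was at 52.3 and 32.8 CPM, 1.59-fold lower, with an interval (1.43 to 1.78) that did not lie wholly beyond 1.5-fold. Pfkfb4 had 78 and 144 counts, or 4.30 and 9.90 CPM, and was 2.30-fold higher (1.73 to 3.07).

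In the later steps, Tpi1 and Pgam1 stood out as lower while their neighbours in the pathway did not. Tpi1, which interconverts the 2 triose phosphates, had 2195 and 778 counts, or 121 and 53.5 CPM, which is 2.27-fold lower (2.09 to 2.46). Pgam1, the phosphoglycerate mutase gene, had 2702 and 996 counts, or 149 and 68.5 CPM, and was 2.18-fold lower (2.02 to 2.34). By log2 ratio these were the genes ranked 1264 and 1357 from the lowest of 13464. Gpi1, which isomerises glucose 6-phosphate, was at 425 and 460 CPM, and Aldoa, the main aldolase gene, at 273 and 278 CPM. Gapdh, the glyceraldehyde phosphate dehydrogenase gene, was at 203 and 161 CPM, 1.26-fold lower (1.20 to 1.33), and Pgk1, the phosphoglycerate kinase gene, at 220 and 184 CPM, 1.20-fold lower (1.14 to 1.26). Both are often taken as stable references, and neither was at the same level in both libraries within counting error. Eno1, the main enolase gene, was at 194 and 178 CPM, and Eno3, the muscle-type enolase, at 22.6 and 32.7 CPM, 1.45-fold higher (1.26 to 1.65). Pkm, the pyruvate kinase gene and the most highly expressed of the 34 by FPKM in both libraries (424 and 306), was at 1102 and 795 CPM, 1.39-fold lower (1.35 to 1.42). The FPKM used an authors' length of 0.520 times the GENCODE union exon length for Pkm and 1.39 times for Ldha. The lead of Pkm over Ldha by FPKM therefore rests in part on the lengths used. The 2 splice forms of Pkm, PKM1 and PKM2, are not separated by a gene count. Aldoc, another aldolase gene, had 48 counts in each library.

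Several of these genes have near-identical copies elsewhere in the genome, which can take or lose reads. Of the 50-base stretches of a main transcript, 82.5% in Gapdh, 72.2% in Eno1, 68.0% in Pgk1 and 62.4% in Bnip3 also occur in a transcript of another annotated gene, and for Gapdh those other genes include 213 annotated pseudogenes. The share lay between 13.9% (Aldoa) and 44.2% (Mpc1) in 10 further genes. Among genes called higher or lower it was 41.5% in Pgam1, 27.0% in Ldhb, 17.1% in Ldha and 7.51% in Tpi1, and 0% in Hk2, Hk3, Pfkm, Pfkfb4, Slc16a1, Slc16a3 and Egln3. The treatment of reads with several matches is not stated, so the levels of the first 4 are uncertain, and those of the 10 further genes, the called Pgam1, Ldhb and Ldha among them, in part. None of the first 4 was counted as higher or lower.

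**Figure D3:**
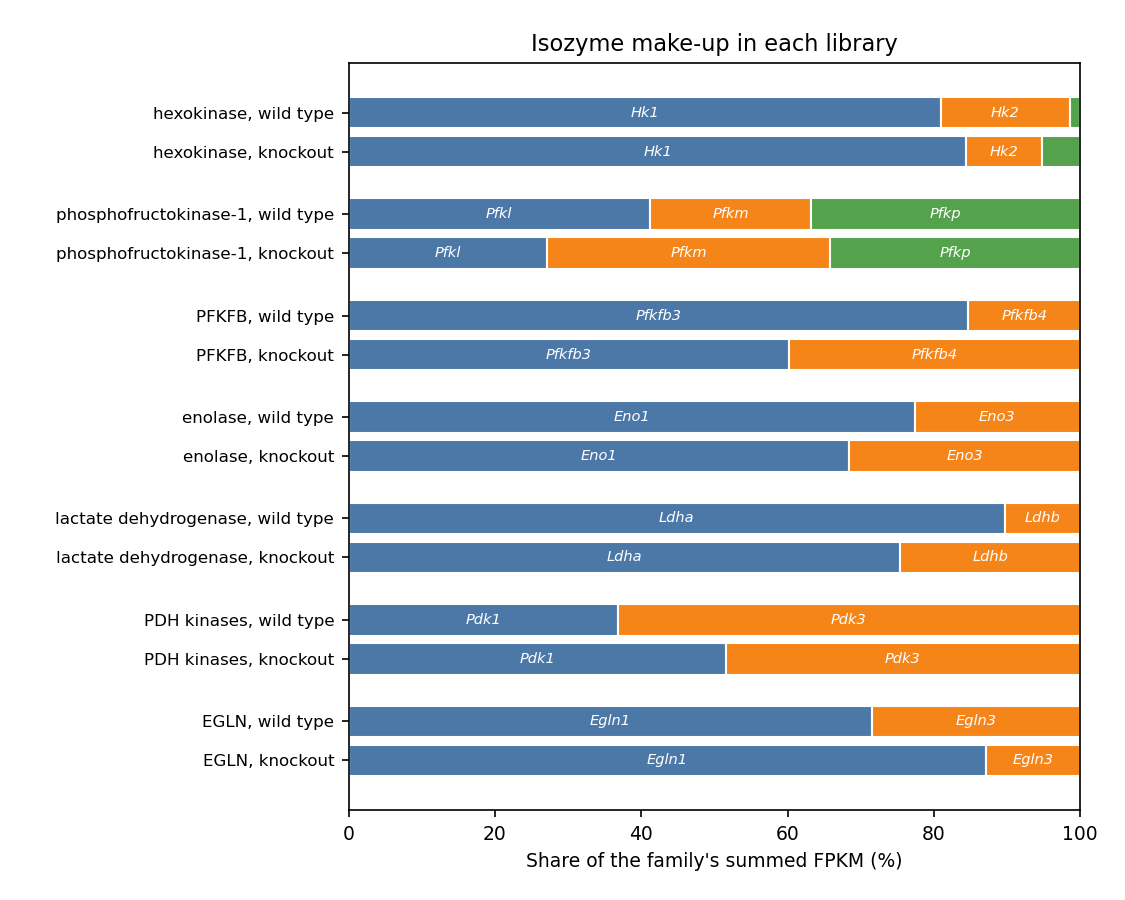
Share of each isozyme family's summed FPKM (%) held by each gene in the wild-type and knockout libraries; the unlabelled green part of the hexokinase bars is Hk3. Ldhb (10.2% and 24.6%), Pfkm (22.1% and 38.6%) and Pfkfb4 (15.3% and 39.8%) take larger parts of their bars in the knockout library, and Egln3 (28.4% and 12.8%) and Hk2 (17.6% and 10.4%) smaller ones.

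At the end of the pathway, Ldha and both lactate transporter genes were lower, and Ldhb was higher. Ldha, the subunit gene that favours reduction of pyruvate to lactate, had 13212 and 6555 counts, or 729 and 451 CPM, which is 1.62-fold lower (1.57 to 1.67). Ldhb, the subunit gene of the heart-type enzyme that favours the reverse reaction, had 647 and 915 counts, or 35.7 and 62.9 CPM, and was 1.76-fold higher (1.59 to 1.95). The Ldhb share of the summed lactate dehydrogenase FPKM was 10.2% for wild type (9.53% to 10.999%) and 24.6% for the knockout (23.3% to 25.9%). Slc16a1, the gene of the lactate and pyruvate transporter MCT1, had 826 and 246 counts, or 45.6 and 16.9 CPM, and was 2.70-fold lower (2.34 to 3.12). Slc16a3, the gene of the lactate exporter MCT4, had 396 and 169 counts, or 21.9 and 11.6 CPM, and was 1.88-fold lower (1.57 to 2.27). The sum of both transporters was 67.4 and 28.5 CPM, 2.36-fold lower (2.11 to 2.65), the lowest ratio among the 12 groups of enzyme, carrier or transporter genes summed here. Emb and Bsg, which encode embigin and basigin, chaperones that bring these transporters to the membrane, were at 188 and 85.4 CPM (2.20-fold lower, 2.06 to 2.35) and 102 and 75.5 CPM (1.35-fold lower, 1.252 to 1.456).

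The route of pyruvate into mitochondria differed less, and no gene of it among the 34 was counted as different. Mpc1 and Mpc2, the 2 subunit genes of the mitochondrial pyruvate carrier, were at 9.60 and 9.90 CPM and at 19.2 and 16.02 CPM. Pdha1 and Pdhb encode the alpha and beta subunits of the first enzyme of pyruvate dehydrogenase. Pdha1 was at 226 and 174 CPM, 1.30-fold lower (1.23 to 1.36), and Pdhb at 75.7 and 89.2 CPM, 1.18-fold higher (1.09 to 1.27). Pdk1 and Pdk3 encode kinases that shut this enzyme off. Pdk1 was at 87.5 and 113 CPM, 1.30-fold higher (1.21 to 1.39), and Pdk3 at 40.4 and 28.7 CPM, 1.41-fold lower (1.248 to 1.593). By FPKM, Pdk1 held 36.8% of the pair in wild type and 51.5% in the knockout. A further list held 12 measured genes of this complex, its regulators, other pyruvate enzymes, and relatives and chaperones of the lactate transporters. In it 1 of 12 was called in each direction (8.33%), against 9.58% and 12.3% of all measured genes. The median log2 ratio of this list was -0.40, and 8 of 12 ratios were below 0. The 1 higher gene was the kinase gene Pdk2 at 14.6 and 31.1 CPM (2.14-fold, 1.83 to 2.50). The 1 lower gene was Emb, the lactate transporter chaperone gene given above.

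Of the HIF regulators, only Egln3 was counted as different. Egln3, the gene of the prolyl hydroxylase PHD3 and itself a HIF target, had 465 and 118 counts, or 25.7 and 8.11 CPM, which is 3.16-fold lower (2.58 to 3.91) and the lowest ratio of the 34. Egln1, the gene of the main oxygen sensor PHD2, was at 85.4 and 73.0 CPM, 1.17-fold lower (1.08 to 1.27), and Hif1a itself was at 364 and 316 CPM, 1.15-fold lower (1.11 to 1.20). Egln3 thereby held 28.4% of the summed FPKM of Egln1 and Egln3 for wild type (26.3% to 30.6%) and 12.8% for the knockout (10.7% to 15.1%). Egln2, a further EGLN gene outside the 34, was at 56.2 and 74.1 CPM (ratio 1.32, 1.21 to 1.44). It is not in that sum and was counted as neither higher nor lower. Bnip3, a mitophagy gene induced by HIF, had 108 and 98 counts, and its interval spanned no difference (ratio 1.13, 0.851 to 1.499).

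**Figure D4:**
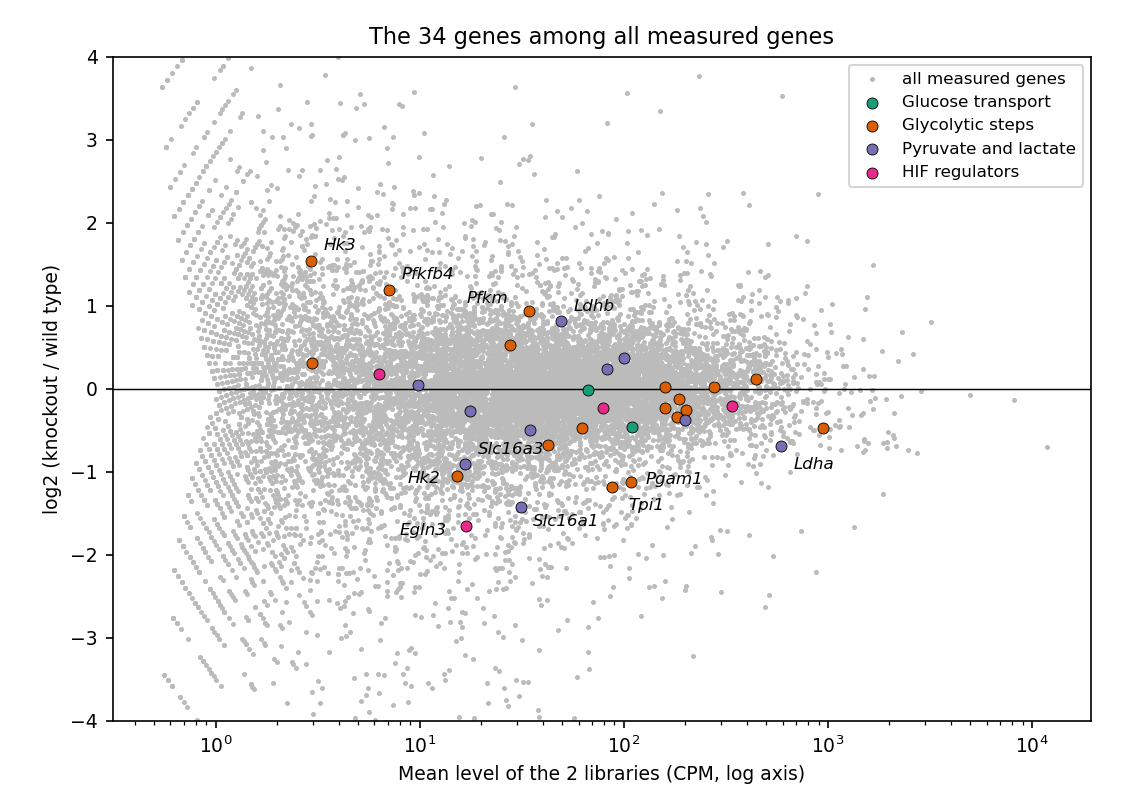
log2 ratio of knockout to wild type against the mean level of the 2 libraries (CPM, log axis) for all 13464 measured genes (grey) and the 34 genes (coloured by class, named where counted as higher or lower); 172 genes beyond 4 on the vertical axis are not drawn. Egln3 and Slc16a1 lie lowest and Hk3 highest among the 34, inside the range of grey points at their level.

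Around the 34 genes, the oxygen-sensing machinery had 3 higher (20%) and 1 lower (6.67%) of 15 measured genes, against 9.58% and 12.3% of all measured genes, with a median log2 ratio of 0.16. Arnt2, a relative of the HIF partner gene Arnt, had 846 wild-type counts and 1 knockout count, 679-fold lower (122 to 26861), whereas Arnt was at 63.0 and 73.0 CPM. The 3 higher were Hif3a, a HIF-alpha gene whose product can restrain the others, at 7.62 and 20.6 CPM (2.71-fold, 2.21 to 3.34), Epas1, the HIF-2 alpha gene, at 4.64 and 9.35 CPM (2.02-fold, 1.53 to 2.68), and Ubxn7, a cofactor of the p97 segregase, at 171 and 273 CPM (1.599-fold, 1.52 to 1.68). Vhl was at 25.7 and 28.7 CPM. Among 25 measured other genes known as HIF targets, 2 were higher (8%) and 7 lower (28%), against 9.58% and 12.3% of all measured genes, the median being 0.03. Rora, a nuclear receptor gene, was at 175 and 35.9 CPM (4.87-fold lower, 4.44 to 5.35), and Bhlhe40, a transcriptional repressor gene, at 349 and 163 CPM (2.14-fold lower, 2.04 to 2.25). Selenbp1, with 50 and 4 counts, was also lower. Ddit4, which restrains mTOR, was at 53.98 and 111 CPM (2.06-fold higher, 1.90 to 2.23), and Tmem45a, with 4 and 18 counts, was the other higher gene.

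The list of MYC, mTOR and glucose-sensing genes also held further signalling and transcription factor genes, Irf4 among them. In it 4 of 22 measured were higher (18.2%) and 1 was lower (4.55%), against 9.58% and 12.3% of all measured genes. The median log2 ratio was 0.18. Txnip, whose product inhibits glucose uptake and whose transcription is driven by the glucose-sensing MondoA and MLX factors, had 5501 and 15838 counts, or 304 and 1089 CPM, and was 3.59-fold higher in the knockout library (3.48 to 3.70). Its paralog Arrdc4, a target of the same factors, had 153 and 529 counts and was 4.31-fold higher (3.59 to 5.19). Mlxip, which encodes MondoA, was at 145 and 230 CPM (1.59-fold higher, 1.51 to 1.67), and Rictor, a subunit of the mTOR complex that phosphorylates AKT, at 177 and 299.5 CPM (1.69-fold higher, 1.61 to 1.77). Irf4, a transcription factor of effector Treg cells, was the lower member at 249.3 and 136 CPM (1.84-fold, 1.74 to 1.94). Myc was at 97.5 and 124 CPM and was not counted.

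The side branches and other isozymes were read against the same 9.58% higher and 12.3% lower of all measured genes. In the pentose phosphate pathway 1 of 10 genes was lower and 0 were higher, and 8 of 10 log2 ratios were below 0 (median -0.39). The lower gene was Pgls, the lactonase of that pathway, at 69.1 and 39.7 CPM (1.74-fold, 1.58 to 1.93). In glycogen metabolism 1 of 10 was higher (10%) and 1 lower (10%), with a median of -0.04. Gyg, the glycogenin gene that primes glycogen, was at 38.7 and 11.1 CPM (3.50-fold lower, 2.94 to 4.18), and Pygm, the muscle-type glycogen phosphorylase gene, at 10.5 and 26.9 CPM (2.56-fold higher, 2.15 to 3.06). Of 29 other isozyme genes 14 were measured, with 3 higher (21.4%), 2 lower (14.3%) and a median of 0.13. The 3 higher included Eno2 and Pgam2, the neuron-type enolase and muscle-type mutase genes, at 9.60 and 31.9 CPM (3.32-fold, 2.78 to 3.98) and at 4.14 and 10.7 CPM (2.59-fold, 1.95 to 3.46). The other was Adpgk, the ADP-dependent glucokinase gene, at 115 and 185 CPM (1.61-fold, 1.52 to 1.70). The lower members were G6pc3, a glucose 6-phosphatase gene, at 19.9 and 8.80 CPM (2.26-fold, 1.84 to 2.79), and Pklr, the liver and red cell pyruvate kinase gene, with 76 and 2 counts (30.5-fold, 8.16 to 257). Beside Pklr stands the erythroid gene Hbb-bs, at 27.4 and 8.04 CPM; its part was not tested.

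**Figure D5:**
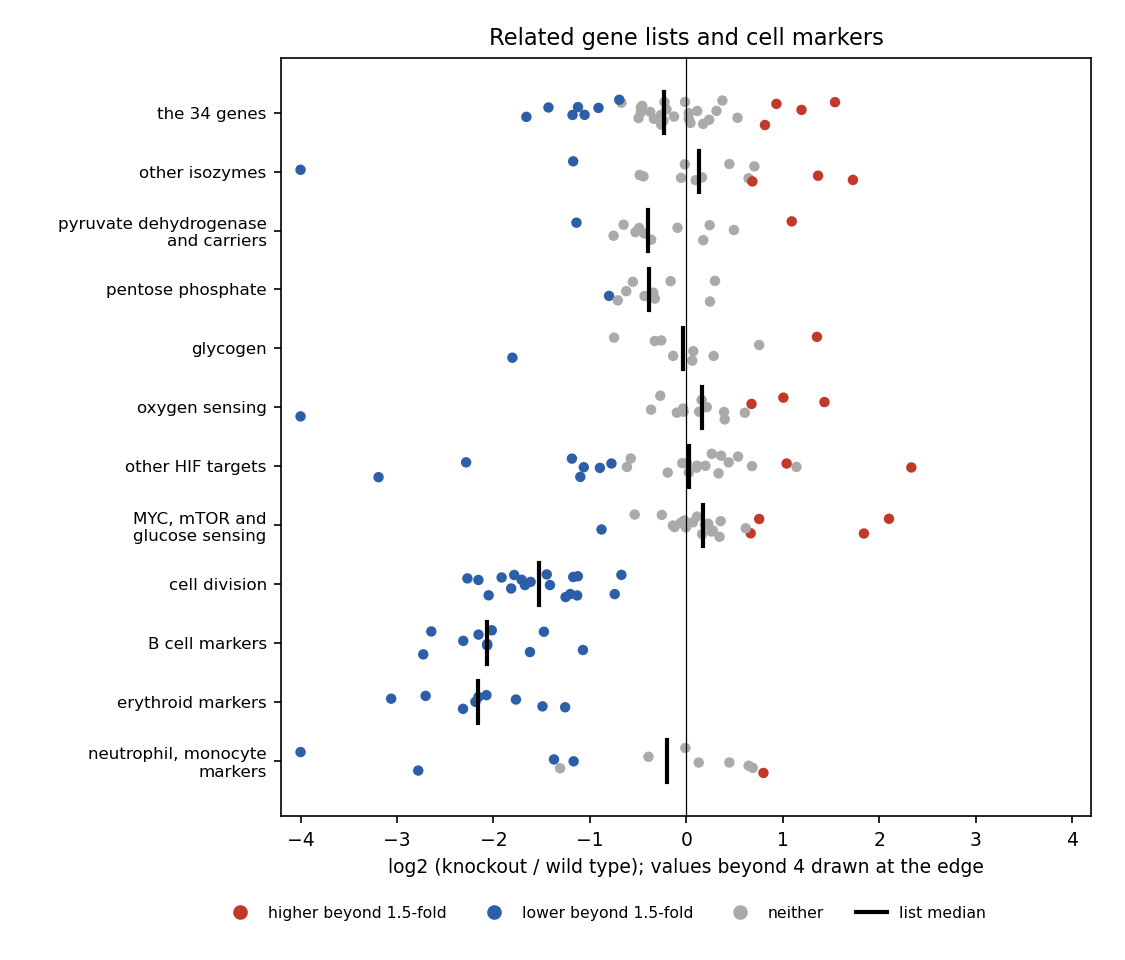
log2 ratio of knockout to wild type for each measured gene (points, red higher and blue lower beyond 1.5-fold) of the 34 genes, 7 related lists and 4 lists of cell division and cell markers, with list medians as black bars; 3 points beyond 4 are drawn at the edge. The medians of the 34 genes and the 7 related lists lie between -0.40 and 0.18, whereas the cell division list (median -1.53) and the B cell (-2.06) and erythroid (-2.16) markers lie to the left.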

How the data were processed

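RNA-seq measured 1 wild-type and 1 knockout library. Per the labels' protocols, total RNA went into an Illumina TruSeq kit, which does not mark strand. The submitters' processing notes name TopHat, HTSeq and the mm10 build. Versions, gene annotation and the treatment of reads with several matches are not stated there. Per the file headers, the authors deposited a read count and an FPKM value per gene name. FPKM was used to compare levels between genes, with the authors' gene lengths, which were 0.385 to 2.50 times the union exon length in GENCODE M21.

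Counts were scaled with TMM factors (edgeR 4.0.16, R 4.3.3), a shift of -0.000839 in every log2 ratio against plain totals. With 1 library per genotype no model was fitted. Each ratio has an exact 95% conditional-binomial interval, and 0.5 counts were added, in proportion to library size, for log2 ratios. The counts are of reads and not of molecules marked with identifiers, so intervals cover counting error only. The interval of a gene's share of its group's FPKM is the exact binomial interval of its counts, carried to FPKM. Other scalings (DESeq2 1.42.0 among them), level filters, fold rules and lengths were tried. The method was tested on simulated counts that carried counting error only, so that test cannot speak to differences between mice or libraries.

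All 34 genes are named. From each related list, up to 3 genes counted higher and 3 lower, by the interval bound nearest to 1, are named. The most abundant marker genes are named as well. Genes outside this rule were chosen after their values were seen (Arnt, Vhl, Egln2, Pfkfb1, Pfkfb2, Myc, Bsg, Mlxip, Foxp3, Cd4, Ikzf2, Ikzf4, Lyz2, Cd68, Adgre1, Itgam, Fcgr1, Cd14, S100a9, Ngp, Ltf, Mpo, Elane, Camp, S100a8 and Ly6g). The members and lists were chosen with earlier results of these data known. Other software was matplotlib 3.10.9 for figures, scipy 1.17.1 for intervals, and pandas 2.3.3 with numpy 2.4.6 under Python 3.11.15.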

Additional observations from a re-analysis of the deposited data

How the results depend on the processing

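No paired analysis was possible because each genotype has 1 library, and for the same reason no library could be left out. Plain totals, median-of-ratios and upper quartile scaling kept the same 11 of 34 genes counted as higher or lower, with medians of -0.23, -0.24 and -0.19. Over 170 values of single genes under other scalings, more added counts or deposited FPKM, 169 stayed inside the counting interval; Pkm under upper quartile scaling did not, and Slc2a1, near 0, was the 1 gene whose sign changed. A 2-fold rule counted 0 of the 34 as higher and 4 as lower, against 585 and 892 of all genes, and a rule of 25% difference 5 and 11, against 2253 and 2620. At 5 CPM or more, 3 were higher and 7 lower of 32. Leaving out the 4 genes that share most of their 50-base stretches with other genes, an alternative chosen after seeing the data, left 4 higher and 7 lower. With GENCODE exon lengths the share of Ldhb was 9.36% and 22.7% in the wild-type and knockout libraries. That of Pfkfb4, in its pair with Pfkfb3, was 11.3% and 31.9%. All 26 shares of a gene among the members of its isozyme or subunit group shifted in the same direction as with the authors' lengths. Without mitochondrially encoded genes in the total, the 34 genes held 0.537% and 0.430% of counts. Depth limits Hk3, Aldoc, Pfkfb4 and Bnip3, whose intervals are the widest relative to their ratios.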
